A study of Mus musculus with 15 samples.

Results

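The gene-level transcriptome of the newborn mouse kidney was compared between animals whose nephron progenitor lineage was targeted for loss of Dnmt1 and their controls. All 6 RNA sequencing samples of the series were chosen by their labels, out of 15 samples in all, and every gene of their count tables entered, with the 5 closing rows that name no gene left out. The remaining samples are bisulfite libraries, of which 6 from the same groups are set beside the transcripts at the end. The 3 control samples carried the genotype Dnmt1 f/f, and the 3 knockout (KO) samples carried Six2Cre Dnmt1 f/f; all were C57BL/6 kidney at P0, the day of birth. Both groups thus carry floxed Dnmt1 alleles, and the Cre transgene is named in the KO labels alone, so that an effect of the transgene and one of the deletion cannot be told apart. The source label names Six2+ cells, the protocol describes DNA from whole kidneys, and the tissue fraction used for RNA is not stated. The mRNA was selected by its poly(A) tail. No label says that the samples of a group are separate animals, so p-values measure the spread between these samples, which may be technical.

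DNMT1 is the maintenance methyltransferase: it copies CpG methylation onto the newly made DNA strand after replication, and dividing cells that lose it dilute their methylation with each division. Six2 marks the cap mesenchyme, the progenitor pool that gives rise to podocytes and to the tubule from proximal segment to distal convoluted tubule, whereas the ureteric bud gives rise to the collecting duct, and stroma, endothelium and macrophages come from other lineages. Promoters of many germ cell genes are methylated in somatic tissue, and these genes are known to depend on DNA methylation for their silence.

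Gene counts summed to between 33657577 and 34102567 per control sample and between 26773937 and 31541317 per KO sample. Of 46517 genes in the tables, 18132 passed the filter on low counts and were tested with edgeR's quasi-likelihood test; a gene is called higher or lower where its Benjamini-Hochberg adjusted p was under 0.05. A gene that passed the filter only through the group where it is high had to differ, so no p is printed for such a gene. Levels are given as CPM, read counts scaled to library size with TMM factors, in controls 1, 2 and 3 and then in KO samples 1, 2 and 3, and log2 fold changes are KO against control. Control 3 stood apart from the other controls: its log2 levels correlated with theirs at 0.971 to 0.973 across genes, against 0.993 between controls 1 and 2, and it separated from all other libraries on the second principal component, which held 21.0% of the variance (the first, with 64.6%, separated the groups). Results that rest on it are therefore given with and without it. Xist was abundant in all 6 libraries, whereas the Y-linked genes Kdm5d, Uty, Ddx3y and Eif2s3y had 12, 14, 35 and 33 counts in control 3 and between 0 and 3 in every other library. Six2 itself did not pass the test, at 98.0, 107 and 41.4 CPM in controls and 84.4, 93.7 and 105 CPM in KO samples, and was lowest in control 3.

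The targeted gene, Dnmt1 (ENSMUSG00000004099.14), stood at 179.8, 156 and 188 CPM in controls and at 109.8, 111 and 93.7 CPM in KO samples. The groups did not overlap, with a log2 fold change of -0.74 (SE 0.12, edgeR adjusted p 0.00577). Transcript thus remained in all KO samples. In bulk RNA, fewer cells of a type and less RNA per cell cannot be told apart, and this holds for every gene below. Among 20 tested genes that write, read or erase DNA methylation, Dnmt1 was the only one called by edgeR.

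Across the transcriptome, 1153 genes were higher and 1493 lower in KO kidneys, or 6.36% and 8.23% of the genes tested (14.6% together). Among the higher genes 827 rose at least 2-fold and 367 at least 8-fold by the fitted value, while 156 had no count in any control; among the lower genes 795 fell at least 2-fold and 120 at least 8-fold, and 1 had no count in any KO sample. Of 315 tested genes with a control mean under 0.1 CPM, the 156 included, 314 were higher, all at least 2-fold. These passed the filter only through KO counts, so their calls are no evidence of their own. Abundant genes were mostly on the lower side: 347 of the lower genes had a control mean of at least 100 CPM, whereas 72 of the higher genes had a KO mean of at least 100 CPM. As a share of all gene counts, the lower genes took 12.2%, 10.2% and 15.3% in the controls against 5.99%, 6.56% and 6.13% in the KO samples, and the higher genes took 1.61%, 1.56% and 1.72% against 3.16%, 3.16% and 3.06%. These shares describe genes chosen for their change. Leaving out control 3 raised the calls to 2512 higher and 2563 lower (13.6% and 13.8% of genes tested), with 1150 of the 1153 and 1490 of the 1493 original calls among them. Counts of list members called without control 3, given below, are to be read against 13.6% and 13.8%. Leaving out 1 of the other libraries lowered the higher calls to between 647 (without KO 1) and 1046 (without control 2) and the lower calls to between 701 and 1471 (without the same libraries).

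**Figure D1:**
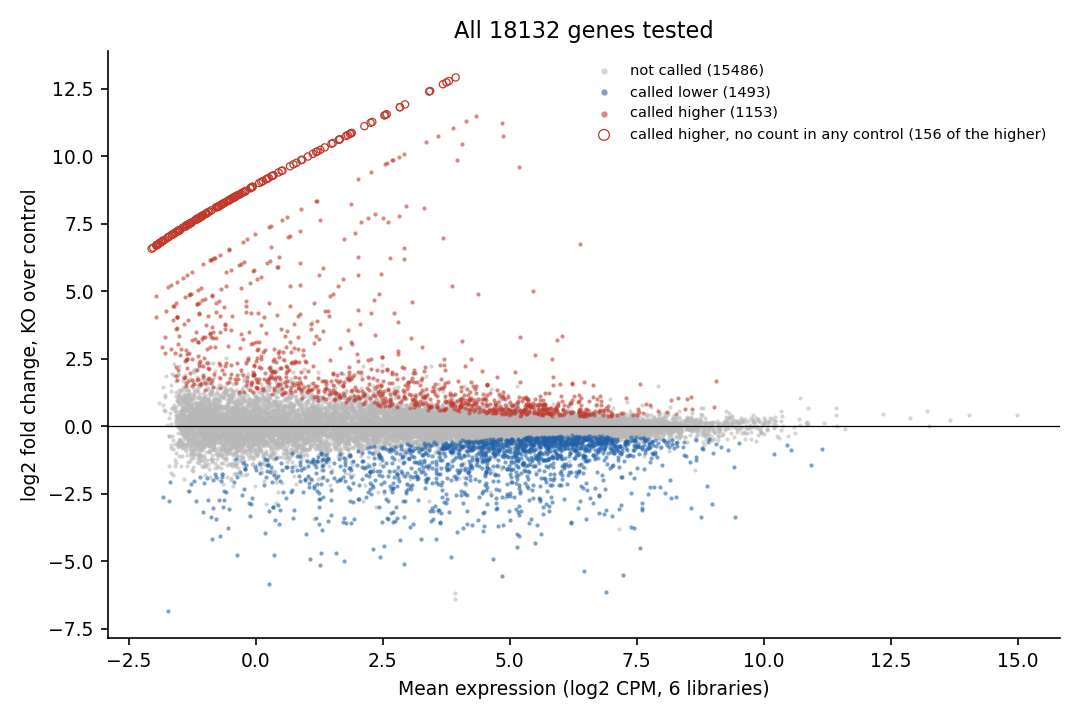
Log2 fold change of every tested gene (vertical axis, KO against control) against its mean level (horizontal axis, log2 CPM); each point is 1 gene, with called genes coloured by direction and hollow circles for the 156 higher genes with no count in any control. The 1153 higher genes reach far larger fold changes and lie mostly at low levels, and the 1493 lower genes lie mostly at medium and high levels.

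Transport genes of the nephron tubule fell together. Of 72 genes on 4 lists of proximal tubule function, 71 were tested, 59 were lower and none was higher, with a median log2 fold change of -2.22 against -0.00074 over all genes tested; without control 3, 61 were lower and the median was -1.71. In 66 of the 72, all KO samples lay below all controls, against 7.68% of all genes in the tables. The gene lists used here were chosen with earlier results of these data known, so such shares are descriptions. The spread within controls was large for these genes: control 3 had the highest summed level on the list of glucose, phosphate, bicarbonate and water transport, at 1657, 1512 and 3389.8 CPM in controls and 468, 500.1 and 511 CPM in KO samples.

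Carriers for water, phosphate and monocarboxylates were among them, and 11 of 16 amino acid and peptide carriers were lower (median -1.68; -1.08 without control 3). Aqp1, the water channel of proximal tubule and thin limb, stood at 354, 391 and 328 CPM in controls and 71.04, 71.9 and 79.3 CPM in KO samples. Its control and KO values were well separated, with a log2 fold change of -2.27 (SE 0.13, edgeR adjusted p 5.43e-05). Slc5a8, a sodium-coupled carrier of lactate and other monocarboxylates, stood at 54.9, 56.8 and 117 CPM in controls against 5.17, 6.03 and 7.75 CPM in KO samples (log2 fold change -3.60, SE 0.33, edgeR adjusted p 0.000423). Slc34a1, the main phosphate carrier of the brush border, stood at 429, 406 and 1531 CPM in controls against 65.6, 81.7 and 81.6 CPM in KO samples. Control 3 was several times above the other controls for Slc34a1, and its log2 fold change of -3.37 (SE 0.52, edgeR adjusted p 0.00396) became -2.45 without that library. Slc3a1, the heavy chain of the cystine transporter, stood at 104, 93.1 and 153 CPM in controls against 14.8, 17.98 and 21.4 CPM in KO samples, a log2 fold change of -2.69. Slc6a18, which takes up neutral amino acids, stood at 133, 138 and 237 CPM in controls against 32.7, 33.3 and 38.4 CPM in KO samples, a log2 fold change of -2.29. For each of these genes all KO samples lay below all controls.

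The organic ion carriers, which clear drugs and metabolites from the blood, were lower for 16 of 19 tested members, with a median of -2.66 (-2.26 without control 3). Slc22a13, an apical carrier of urate and other organic anions, stood at 33.1, 29.4 and 36.3 CPM in controls and 1.77, 3.08 and 3.19 CPM in KO samples (log2 fold change -3.62, SE 0.25, edgeR adjusted p 0.000114). Slc22a6, the basolateral organic anion exchanger OAT1, stood at 133, 114 and 334 CPM in controls against 17.5, 24.4 and 21.3 CPM in KO samples. Control 3 was again the highest library, and the log2 fold change of -3.20 became -2.55 without it. Genes of endocytosis and the brush border were lower in 18 of 19 cases (median -2.11). Lrp2, which encodes megalin, the receptor that retrieves filtered proteins, stood at 698, 601 and 1036 CPM in controls against 153, 169 and 178 CPM in KO samples (log2 fold change -2.22, SE 0.22, edgeR adjusted p 0.000572). Mep1b, a brush border protease, stood at 98.4, 81.7 and 93.9 CPM in controls against 3.49, 5.63 and 8.24 CPM in KO samples, a log2 fold change of -3.99. KO samples kept between 3.49 and 8.24 CPM of Mep1b, so that transcript remained measurable in all of them.

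In the thick ascending limb, which dilutes the urine, all 12 listed genes were lower (median -2.62; all 12 also without control 3). Umod, which encodes uromodulin, the most abundant protein of normal urine, stood at 299, 359 and 432 CPM in controls and 13.1, 18.3 and 16.9 CPM in KO samples (log2 fold change -4.50, SE 0.20, edgeR adjusted p 2.49e-05). Slc12a1, the furosemide-sensitive salt carrier NKCC2, stood at 598, 783 and 645 CPM in controls against 71.1, 108 and 71.1 CPM in KO samples (log2 fold change -3.02, SE 0.22, edgeR adjusted p 0.000127). Cldn10, a claudin of the paracellular sodium path, stood at 76.8, 78.99 and 94.8 CPM in controls against 10.9, 14.4 and 13.4 CPM in KO samples, a log2 fold change of -2.69. In these 3 genes the controls resembled each other, control 3 included. Further along, 5 of 11 genes of the distal convoluted tubule were lower and 1 higher. Slc12a3, its thiazide-sensitive salt carrier, stood at 97.7, 67.7 and 241 CPM in controls against 11.5, 10.9 and 12.6 CPM in KO samples, with control 3 the highest library and a log2 fold change of -3.53 (-2.82 without it). Calb1, a calcium-binding protein of distal tubule and connecting segment, was the higher member, at 170.3, 195 and 224 CPM in controls against 295, 303 and 273 CPM in KO samples (log2 fold change 0.56, SE 0.14, edgeR adjusted p 0.0274). That call was lost when scaling used library size alone and when any single library other than control 3 was left out.

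Of 19 tested collecting duct genes, whose cells mostly descend from the ureteric bud, 9 were lower and 0 higher (median -0.83). Both pumps that energise tubular transport had lower members. Of 12 genes of sodium pump and FXYD subunits, all KO samples lay below all controls in 4 (33.3%) and above them in 2 (16.7%). Over all genes in the tables these shares were 7.68% and 8.91%. Fxyd2, the modulatory subunit of the sodium pump in the kidney, stood at 529, 484 and 579 CPM in controls against 71.1, 91.1 and 94.2 CPM in KO samples (log2 fold change -2.63, SE 0.16, edgeR adjusted p 7.36e-05). Among 17 subunits of the proton pump, 7 were lower (11 lower without control 3). Atp6v0a4, a subunit concentrated in acid-secreting cells, stood at 75.2, 77.5 and 118 CPM in controls against 18.9, 21.7 and 18.9 CPM in KO samples, a log2 fold change of -2.19, and Atp6v1a, which is used in most cells, had one of -0.98.

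**Figure D2:**
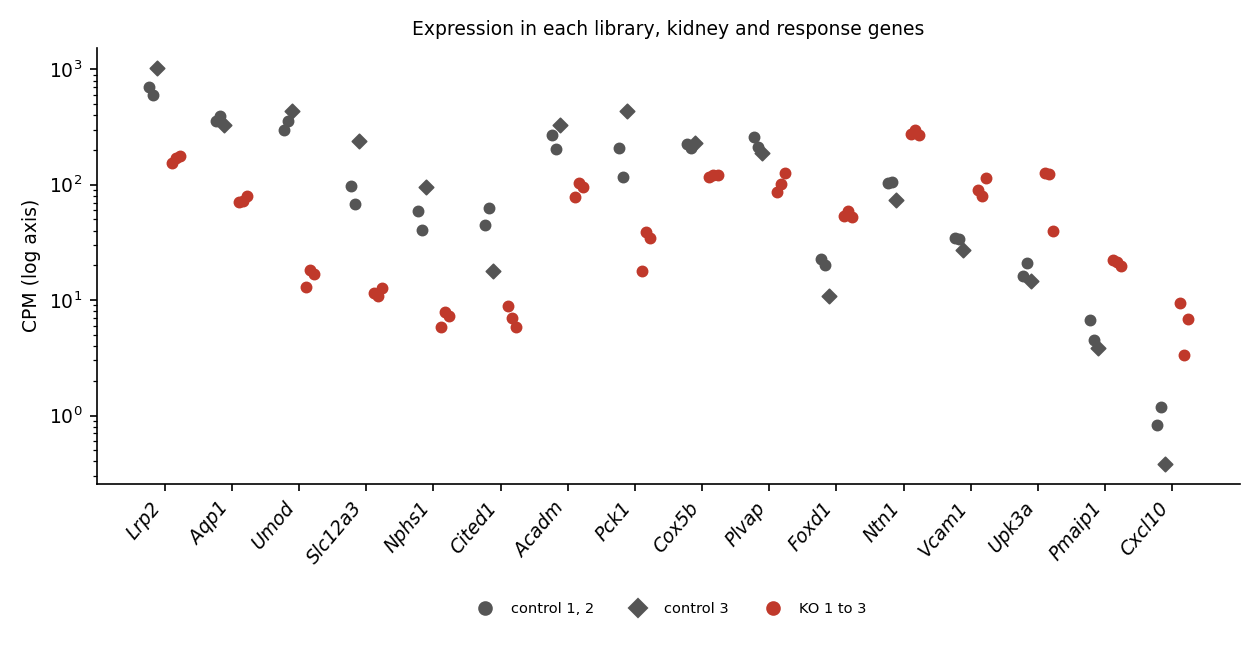
Level of 16 genes of kidney cell types, metabolism and stress responses in each library (vertical axis, CPM on a log scale); grey symbols are controls, with control 3 as a diamond, and red circles are KO libraries. Umod, Nphs1 and Aqp1 show groups far apart, Slc12a3 and Pck1 show control 3 above the other controls, and Foxd1, Vcam1, Upk3a, Pmaip1 and Cxcl10 lie higher in KO libraries.

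In the glomerulus, 11 of 24 podocyte genes were lower and 0 higher (median -0.53; 13 lower and 2 higher without control 3). Nphs1, which encodes nephrin of the slit diaphragm, stood at 58.8, 40.3 and 95.1 CPM in controls and 5.88, 7.96 and 7.33 CPM in KO samples (log2 fold change -3.20, SE 0.31, edgeR adjusted p 0.000549). Podxl, the charged sialomucin of the podocyte surface, stood at 521, 355 and 496 CPM in controls against 106, 112 and 130.4 CPM in KO samples, a log2 fold change of -1.98. Both genes had all KO samples below all controls.

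Progenitor genes moved in both directions. Of 17 listed, 2 were higher and 4 lower, with a median of 0.08 (-0.12 without control 3, with 4 higher and 5 lower). Cited1, a marker of the uncommitted cap mesenchyme, stood at 44.8, 62.99 and 17.8 CPM in controls and 8.84, 6.94 and 5.85 CPM in KO samples (log2 fold change -2.53, SE 0.42, edgeR adjusted p 0.00556). Control 3 was the lowest control for Cited1 as it was for Six2, and the log2 fold change without it was -2.89. Itga8, the receptor for nephronectin that guides the ureteric bud, stood at 168, 159.96 and 191 CPM in controls against 101, 96.4 and 102 CPM in KO samples, a log2 fold change of -0.79. The higher members, named after their values were seen, were the transcription factors Osr1 and Eya1, with log2 fold changes of 0.95 and 0.65. On a separate list of 22 FGF signalling genes, 5 were higher and 2 lower (7 higher and 5 lower without control 3), and Fgf20, a growth factor that maintains the progenitors, stood at 0.152, 0.291 and 0.733 CPM in controls against 5.01, 4.98 and 2.16 CPM in KO samples (log2 fold change 3.34; 4.18 without control 3). The KO level of Fgf20 remained in the single digits.

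Genes of the forming nephron were lower in 7 of 24 cases and higher in none, with 3 higher and 11 lower without control 3. Irx1, an Iroquois factor of the intermediate segment, stood at 89.2, 70.4 and 44.5 CPM in controls and 13.2, 14.6 and 13.8 CPM in KO samples (log2 fold change -2.29, SE 0.24, edgeR adjusted p 0.000706). Irx2, its chromosomal neighbour, stood at 33.9, 31.5 and 23.3 CPM in controls against 5.14, 4.95 and 5.32 CPM in KO samples, a log2 fold change of -2.52. Transcription factors of the maturing tubule were lower in 10 of 21 cases and higher in 1 (median -0.83; -0.56 without control 3). Esrrb, an orphan nuclear receptor of distal segments, stood at 21.2, 22.9 and 15.6 CPM in controls against 1.37, 2.82 and 1.03 CPM in KO samples (log2 fold change -3.51, SE 0.38, edgeR adjusted p 0.000837). Esrrg, its relative and a regulator of mitochondrial genes, had a log2 fold change of -1.25, and Ppargc1a, the coactivator that works with such receptors in mitochondrial biogenesis, had one of -1.08. Each of these 5 genes, from Irx1 to Ppargc1a, was called lower under every setting tried.

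Metabolic genes of mitochondria and peroxisomes were also lower in large part. Of 24 fatty acid oxidation genes, 16 were lower and none higher (median -0.77; 22 lower without control 3). Acadm, the medium-chain acyl-CoA dehydrogenase, stood at 272, 205 and 330.2 CPM in controls and 77.7, 103 and 95.4 CPM in KO samples (log2 fold change -1.55, SE 0.19, edgeR adjusted p 0.00157). Acsm1, which activates medium-chain fatty acids, stood at 50.1, 28.7 and 82.6 CPM in controls against 2.77, 4.49 and 5.54 CPM in KO samples (log2 fold change -3.66, SE 0.42, edgeR adjusted p 0.00112). Among 22 peroxisomal enzymes, 16 were lower (median -1.19). This list summed to 1329, 1175 and 2010 CPM in controls, with control 3 the highest, and 662, 720 and 687 CPM in KO samples. Acox2, the oxidase for branched-chain fatty acids, stood at 12.4, 7.405 and 12.5 CPM in controls against 0.311, 0.491 and 0.683 CPM in KO samples, a log2 fold change of -4.45, and Hao2, a hydroxyacid oxidase, stood at 161, 167 and 107 CPM in controls against 28.5, 29.6 and 30.8 CPM in KO samples, a log2 fold change of -2.29. KO samples of Acox2 were all under 1 CPM.

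Of 12 genes of gluconeogenesis and fructose use, 9 were lower (median -1.73), and 2 of 18 glycolysis genes were lower (median -0.21), which is close to the background of 8.23%. Without control 3, 6 glycolysis genes were lower, and the difference between the lists was not tested. The gluconeogenesis and fructose list summed to 1665, 1304 and 3689 CPM in controls, with control 3 the highest. Its sums in KO samples were 319, 433 and 417 CPM. Pck1, the regulated enzyme of gluconeogenesis, stood at 207, 116 and 436 CPM in controls against 17.7, 39.2 and 34.2 CPM in KO samples, a log2 fold change of -3.06 (-2.41 without control 3). Slc37a4, the glucose 6-phosphate carrier of the endoplasmic reticulum, stood at 86.6, 61.3 and 122 CPM in controls against 23.1, 26.2 and 30.2 CPM in KO samples (log2 fold change -1.77, SE 0.24, edgeR adjusted p 0.00234). Amino acid breakdown was lower in 17 of 27 genes (median -1.18). The list summed to 1214, 1068 and 1820 CPM in controls, with control 3 the highest, and 554, 594 and 584 CPM in KO samples. Hgd, which opens the ring of homogentisate in tyrosine breakdown, stood at 33.6, 25.3 and 36.3 CPM in controls against 3.05, 3.57 and 4.06 CPM in KO samples (log2 fold change -3.16, SE 0.21, edgeR adjusted p 9.54e-05), and Dmgdh, a mitochondrial choline-pathway enzyme, at 15.2, 10.99 and 20.3 CPM in controls against 1.15, 1.31 and 1.33 CPM in KO samples, a log2 fold change of -3.62.

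Nuclear genes of the respiratory chain and the tricarboxylic acid cycle were also lower. Of 48 nuclear genes for subunits of complexes I to V, 35 were lower and none higher, with a median of -0.61 (45 lower without control 3). They took 1.24%, 1.14% and 1.19% of counts in the controls against 0.738%, 0.812% and 0.781% in the KO samples. Cox5b, a subunit of cytochrome c oxidase, stood at 227, 208 and 230.1 CPM in controls and 118, 122 and 122 CPM in KO samples (log2 fold change -0.88, SE 0.11, edgeR adjusted p 0.00131). In the tricarboxylic acid cycle 17 of 18 genes were lower (median -0.64), and in all 18 all KO samples lay below all controls. Mdh1, the cytosolic malate dehydrogenase of the malate-aspartate shuttle, stood at 639, 518 and 555 CPM in controls against 211, 266 and 240.03 CPM in KO samples (log2 fold change -1.26, SE 0.15, edgeR adjusted p 0.00135). The 13 protein genes of the mitochondrial genome had no call by edgeR or DESeq2, none at an unadjusted p under 0.05, and a median of 0.40, with summed levels of 46057, 142019.9 and 38611 CPM in controls and 108714, 72969 and 115465 CPM in KO samples, ranges that overlap. Whether the nuclear and mitochondrial subunits differed was not tested.

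Cholesterol synthesis was lower in 6 of 21 genes (16 without control 3, median -0.48). Phase II conjugating enzymes were lower in 13 of 21 cases, with a median of -1.50 that became -0.89 without control 3. Gsta2, a glutathione transferase, stood at 85.2, 106 and 114 CPM in controls against 19.2, 18.9 and 29.9 CPM in KO samples (log2 fold change -2.17, SE 0.21, edgeR adjusted p 0.000481). Phase I enzymes had 10 lower and 1 higher of 21, with a median of -1.66 (-0.77 without control 3). Cyp24a1, which inactivates vitamin D, stood at 16.9, 29.9 and 21.6 CPM in controls against 2.37, 4.72 and 2.58 CPM in KO samples, a log2 fold change of -2.82. Control 3 was not the highest control for Cyp24a1 and was the highest for Gsta2.

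**Figure D3:**
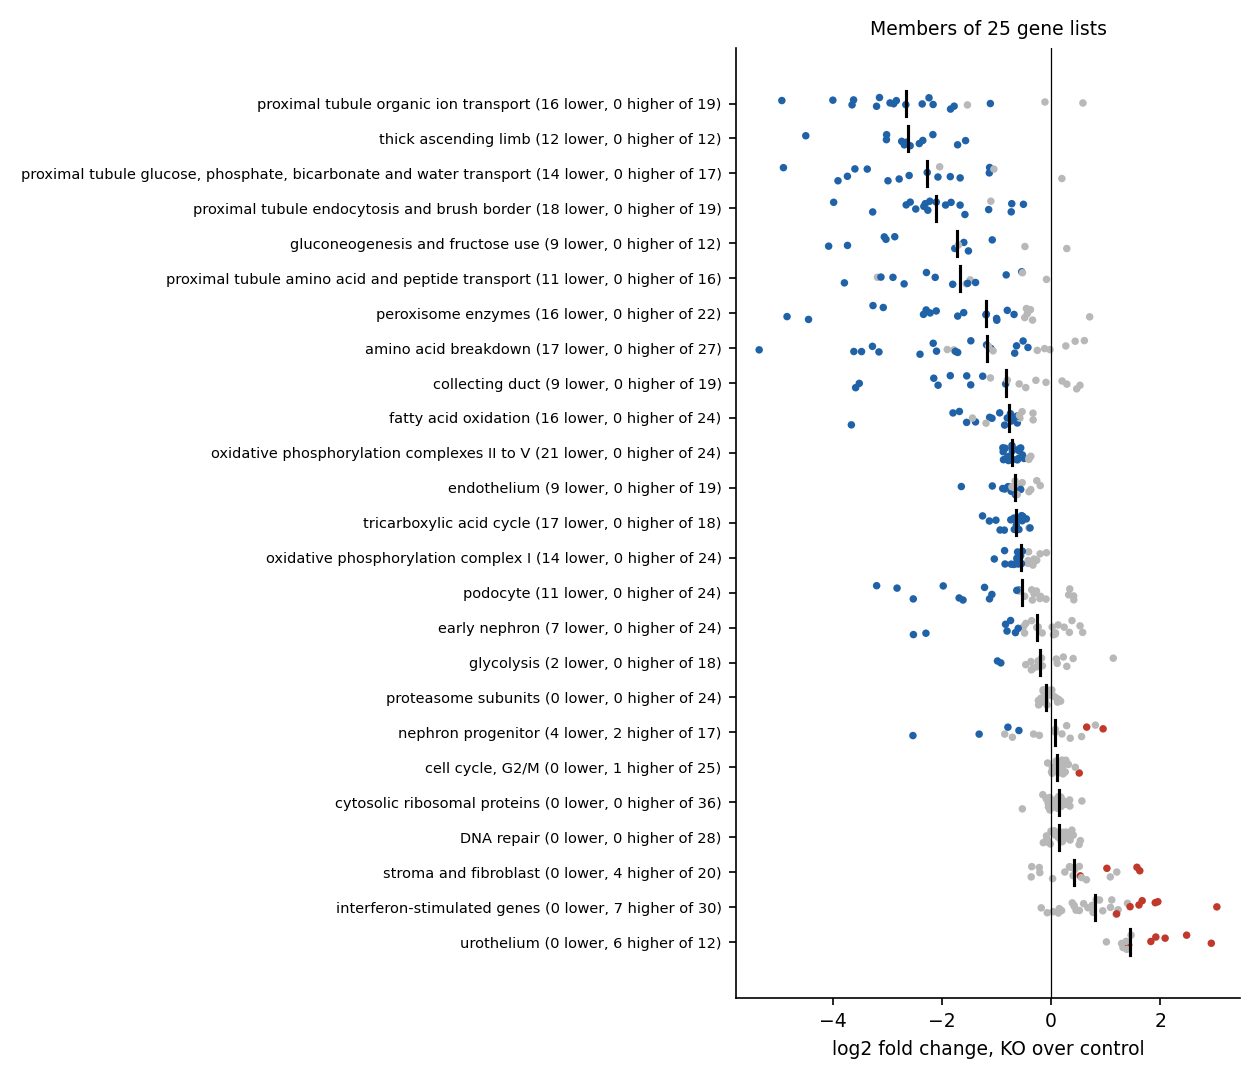
Log2 fold change of the tested members of 25 gene lists (horizontal axis, KO against control); each point is 1 gene and the black bar is the list's median. Blue members were called lower and red members higher; tubule transport, peroxisomal and mitochondrial lists lie to the left of 0, ribosomal and proteasome lists close to it, and stromal, interferon-stimulated and urothelial lists to its right.

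Lineages that Six2Cre is not known to target also held calls. Of 19 endothelial genes, 9 were lower and none higher (median -0.66; 16 lower without control 3). Plvap, the diaphragm protein of fenestrated endothelium, stood at 262, 210.5 and 188 CPM in controls and 85.8, 101 and 126 CPM in KO samples (log2 fold change -1.08, SE 0.18, edgeR adjusted p 0.00577), and Vwf, which encodes von Willebrand factor, at 15.2, 14.3 and 14.7 CPM in controls against 3.46, 6.19 and 4.44 CPM in KO samples (log2 fold change -1.65, SE 0.24, edgeR adjusted p 0.00291). For both, all KO samples lay below all controls. Of 20 stromal genes, 4 were higher and none lower (median 0.42; 7 higher and 1 lower without control 3). Foxd1, the transcription factor that marks the stromal progenitors, stood at 22.6, 20.2 and 10.8 CPM in controls against 54.1, 58.96 and 52.4 CPM in KO samples (log2 fold change 1.63, SE 0.25, edgeR adjusted p 0.00394). Control 3 was lowest for Foxd1. Of 15 genes of mesangial cells and pericytes, 2 were higher and 2 lower (median -0.15; 2 higher and 5 lower without control 3). Pdgfra, a receptor of interstitial fibroblasts and one of the higher members of that list, stood at 172, 147 and 155 CPM in controls against 294, 251 and 273 CPM in KO samples, a log2 fold change of 0.79.

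Ureteric bud and tip genes were higher in 4 and lower in 2 of 19 cases (6 higher and 4 lower without control 3), and urothelial genes, which mark the lining of the renal pelvis and ureter, were higher in 6 of 12, with none lower. The urothelial list summed to 103, 136 and 128 CPM in controls and 645, 398 and 170.4 CPM in KO samples. Upk3a, a uroplakin of the urothelial surface, stood at 16.2, 20.9 and 14.6 CPM in controls against 126, 123 and 40.02 CPM in KO samples (log2 fold change 2.49, SE 0.40, edgeR adjusted p 0.00483). KO 3 was the lowest KO library in both measures and lay nearest to the controls. Skeletal muscle genes, with no call by edgeR or DESeq2 among 7 tested and none at an unadjusted p under 0.05, summed to 16.01, 57.2 and 10.9 CPM in controls and 151, 12.4 and 20.1 CPM in KO samples, with KO 1 and control 2 the highest.

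Macrophage genes were higher in 3 of 17 cases, with sums of 145, 183 and 175 CPM in controls and 262, 160.1 and 263 CPM in KO samples, so that KO 2 lay within the controls. Erythroid and platelet genes had 1 lower call of 12 tested, lymphocyte genes had none of 4 by edgeR or DESeq2 (0 at an unadjusted p under 0.05), and granulocyte and mast cell genes had 1 higher call of 13. Without control 3, 5 erythroid and platelet genes were lower, with a median of -0.55 against -0.40 with it, and 1 lymphocyte gene was higher. Adrenal markers had no edgeR call among 7 tested, with 3 at an unadjusted p under 0.05 and 1 called by DESeq2. Of 15 markers of gonadal somatic cells, 6 were tested and Rhox5 was the only one called, while Cyp19a1, Foxl2, Fshr and Rhox8 had no count in any library.

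General growth and maintenance genes held few edgeR calls with all libraries in the fit. Of 26 genes of replication and the G1/S transition, 0 were higher and 1 lower (2 higher and 5 lower without control 3), and of 25 G2/M genes 1 was higher (2 without control 3). None of 36 cytosolic ribosomal protein genes was called by edgeR, with 1 at an unadjusted p under 0.05 and 1 called by DESeq2. Of 24 proteasome subunits none was called by edgeR or DESeq2, with 1 at an unadjusted p under 0.05, and 6 were lower without control 3. DNA repair genes had no edgeR call among 28, with 3 at an unadjusted p under 0.05 and 2 called by DESeq2, and 6 were higher without control 3. Cdkn2a, the locus of the cell cycle inhibitors p16 and ARF, stood at 0.122, 0.226 and 0.0815 CPM in controls and 1.53, 2.06 and 2.16 CPM in KO samples (log2 fold change 3.73). Its KO level was low but all KO samples lay above all controls.

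Among 25 p53 targets, 6 were higher and 1 lower (median 0.28). Pmaip1, which encodes the pro-apoptotic BH3 protein NOXA, stood at 6.79, 4.53 and 3.86 CPM in controls and 22.4, 21.6 and 19.8 CPM in KO samples (log2 fold change 2.07, SE 0.23, edgeR adjusted p 0.00103). Eda2r, a death receptor, stood at 0.974, 1.52 and 0.733 CPM in controls against 6.195, 7.304 and 6.99 CPM in KO samples (log2 fold change 2.67, SE 0.31, edgeR adjusted p 0.00123). These 2 remained called under every setting. The apoptosis machinery had 2 higher of 22 (3 higher and 3 lower without control 3), and tubule injury markers 4 higher and 1 lower of 18. Vcam1, an adhesion receptor of inflamed and injured cells, stood at 34.5, 34.1 and 27.4 CPM in controls against 90.9, 80.6 and 114 CPM in KO samples, a log2 fold change of 1.57. Antioxidant genes driven by NRF2 were lower in 5 of 15 cases (9 without control 3), and heat shock genes had no edgeR call among 13 (2 at an unadjusted p under 0.05, 1 called by DESeq2). Sod2, the mitochondrial superoxide dismutase, stood at 107, 99.6 and 115 CPM in controls against 45.3, 51.7 and 44.6 CPM in KO samples (log2 fold change -1.18, SE 0.11, edgeR adjusted p 0.000476).

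Lists of innate immunity held different numbers of calls. Sensors of double-stranded nucleic acid were higher in 3 of 25 cases, and in 12 without control 3, with a median of 0.55 (0.71 without it). Interferon-stimulated genes were higher in 7 of 30 (median 0.80; 11 higher without control 3). Their summed levels were 426, 452 and 359 CPM in controls and 675, 424 and 766 CPM in KO samples, so that KO 1 and KO 3 lay above the controls and KO 2 among them. Cxcl10, an interferon-induced chemokine that attracts T cells, stood at 0.822, 1.196 and 0.3802 CPM in controls and 9.37, 3.37 and 6.91 CPM in KO samples (log2 fold change 3.04, SE 0.51, edgeR adjusted p 0.00569). Il33, an alarmin held in nuclei and a member of the list of chemokines and cytokines, of which 7 were higher and 2 lower among 15 tested, stood at 29.9, 36.4 and 30.99 CPM in controls against 79.4, 69.9 and 79.9 CPM in KO samples (log2 fold change 1.24, SE 0.12, edgeR adjusted p 0.000573). KO 2 was the lowest KO library for both, by a wide margin in Cxcl10 and a narrow one in Il33. Of 15 complement genes, 1 was higher and 2 lower, the lower ones being Cfb and Cfi, with log2 fold changes of -1.71 and -1.55. NF-kB targets had 1 higher and 1 lower of 15 (5 higher and 3 lower without control 3). None of 6 tested interferon genes and receptors was called by edgeR or DESeq2, with 1 at an unadjusted p under 0.05 and 1 lower without control 3. Macrophage markers, given above, were lowest in KO 2 among the KO libraries, and their part in these results was not tested.

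Many genes that are normally restricted to germ cells or the early embryo went from no or almost no transcript in controls to clear levels in KO samples. Over 8 such lists, 209 genes were in the tables, and in 99 of them (47.4%) all KO samples lay above all controls, against 8.91% of all genes in the tables; in 4 the order was reversed and 26 had no count in any library. These lists too were chosen with earlier results of these data known, so the shares describe the lists and test nothing. Among the 209, 51 had no count in any control and a count in every KO sample, as had 549 of all 46517 genes in the tables. The order held for 25 of 29 genes of the 2-cell embryo and 31 of 41 X-linked cancer-testis and placenta genes, for 17 of 31 meiosis genes and 12 of 23 genes of the piRNA pathway, for 7 of 17 Prame-like genes, 4 of 20 germ cell transcription regulators, 4 of 26 sperm genes and 3 of 28 oocyte genes, and some genes are on more than 1 of the lists. On a separate list of 26 placenta and trophoblast genes it held for 1, and 14 had no count in any library. Members that passed the filter only through the KO libraries had to differ, so the 61 higher calls among 104 tested members are no evidence of their own.

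The start regions of 4 germ cell genes are shown because their promoters carried dense methylation in control kidneys, which is described further on. They are the 250 bases before the start in RefSeq GRCm38.p6, written 5′ to 3′ on the gene's strand, with each CpG in capitals: Sohlh2 at chr3:55181794-55182043, plus strand; Mov10l1 at chr15:88982744-88982993, plus strand; Slc25a31 at chr3:40708621-40708870, plus strand; and Tuba3a at chr6:125286082-125286331, minus strand.
Sohlh2: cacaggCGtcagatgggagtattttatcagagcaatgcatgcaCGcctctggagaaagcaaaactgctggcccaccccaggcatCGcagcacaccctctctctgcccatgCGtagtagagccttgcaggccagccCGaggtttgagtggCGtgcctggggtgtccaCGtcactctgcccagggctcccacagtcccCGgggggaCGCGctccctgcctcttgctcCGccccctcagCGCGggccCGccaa
Mov10l1: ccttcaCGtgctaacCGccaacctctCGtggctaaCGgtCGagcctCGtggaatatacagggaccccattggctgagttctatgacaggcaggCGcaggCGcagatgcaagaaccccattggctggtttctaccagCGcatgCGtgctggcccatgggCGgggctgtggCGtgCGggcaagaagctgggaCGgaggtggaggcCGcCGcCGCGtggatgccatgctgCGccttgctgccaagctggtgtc
Slc25a31: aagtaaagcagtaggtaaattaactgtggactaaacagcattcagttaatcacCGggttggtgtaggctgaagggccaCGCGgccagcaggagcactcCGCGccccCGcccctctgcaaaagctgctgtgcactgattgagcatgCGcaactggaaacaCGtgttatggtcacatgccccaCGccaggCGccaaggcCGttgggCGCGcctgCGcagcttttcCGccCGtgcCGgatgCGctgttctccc
Tuba3a: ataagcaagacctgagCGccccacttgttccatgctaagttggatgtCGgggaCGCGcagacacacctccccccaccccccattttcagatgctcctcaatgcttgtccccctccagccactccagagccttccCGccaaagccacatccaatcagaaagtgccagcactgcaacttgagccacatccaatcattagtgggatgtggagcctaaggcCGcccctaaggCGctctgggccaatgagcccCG
They hold 14, 19, 18 and 8 CpGs, against a median of 14 over 12904 promoters of the same length.

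Sohlh2 (ENSMUSG00000027794.4), a helix-loop-helix factor of early spermatogonia and oocytes, stood at 0, 0 and 0.0272 CPM in controls, which is 1 read in control 3, and at 34.9, 36.4 and 49.3 CPM in KO samples. Dazl, an RNA-binding protein that licenses germ cell development, stood at 0, 0.162 and 0.109 CPM in controls against 64.1, 58.3 and 96.1 CPM in KO samples. Both were low in every control and high in every KO sample. Mov10l1, the RNA helicase that starts piRNA processing, had no count in any control and stood at 5.32, 5.96 and 7.44 CPM in KO samples, at least 69.4-fold above a floor of 3 counts per control library. Asz1, a piRNA factor at the mitochondrial surface, stood at 0.0304, 0 and 0.0272 CPM in controls against 2.43, 3.01 and 3.87 CPM in KO samples. Tex19.1, which restrains retrotransposons in germ cells, stood at 0, 0.0323 and 0 CPM in controls against 11.02, 10.4 and 13.4 CPM in KO samples. Slc25a31, the ADP/ATP carrier of sperm and meiotic cells, stood at 0.0304, 0.0647 and 0.0815 CPM in controls against 12.6, 13.04 and 16.5 CPM in KO samples, and Tuba3a, a testis tubulin nearly identical in sequence to Tuba3b, at 0.0609, 0.0323 and 0 CPM in controls against 49.3, 58.6 and 66.3 CPM in KO samples. Reads of near-identical copies may have been split or dropped in counting, so the level of Tuba3a is uncertain.

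Genes of the 2-cell embryo lie in tandem arrays of near-identical copies, and their levels carry the same uncertainty. Zscan4d, of a family that extends telomeres in early embryos, stood at 0.0609, 0 and 0 CPM in controls and 58.1, 37.3 and 76.5 CPM in KO samples. Zscan4c had no count in any control and stood at 32.5, 4.42 and 40.02 CPM, at least 285-fold higher. KO 2 was far below the other KO libraries for Zscan4c and lowest for Zscan4d. Usp17le, a deubiquitinase, had no control count and stood at 30.04, 26.2 and 35.3 CPM (at least 339-fold higher), and Tcstv1, named for 2-cell transcripts, at 10.2, 17.4 and 14.997 CPM (at least 158-fold higher). KO 2 was lowest for Usp17le and highest for Tcstv1. Pramef25, a Prame-like gene, stood at 0, 0.0323 and 0.0272 CPM in controls against 34.1, 29.6 and 35.8 CPM in KO samples. On the X chromosome, Rhox6 and Rhox5 belong to the reproductive homeobox cluster. Rhox6 had no control count and 4.08, 4.85 and 5.35 CPM in KO samples (at least 52.9-fold higher), and Rhox5 stood at 0.304, 0.162 and 0.0272 CPM in controls against 11.2, 9.47 and 15.9 CPM in KO samples.

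**Figure D4:**
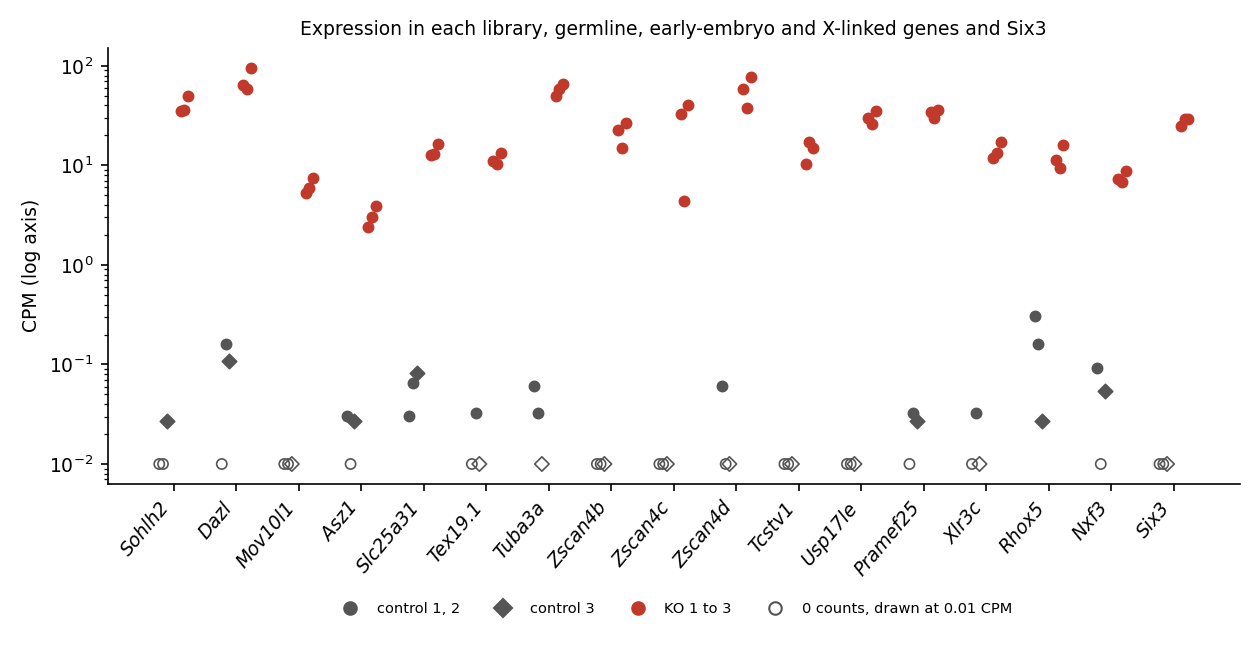
Level of 17 genes (germ cell, early embryo and X-linked genes, and Six3) in each library (vertical axis, CPM on a log scale); grey symbols are controls, with control 3 as a diamond, red circles are KO libraries, and hollow symbols drawn at 0.01 CPM had no count. Control libraries lie at no count or below 1 CPM, and KO libraries lie between 1 and 100 CPM.

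Six3, a homeobox factor of the eye and forebrain and a neighbour of Six2, had no count in any control and stood at 24.998, 29.4 and 29.1 CPM in the KO samples, at least 309-fold higher. The KO libraries resembled each other. Its antisense partner Six3os1 stood at 0.0304, 0.0323 and 0.0272 CPM in controls and 2.24, 2.52 and 1.86 CPM in KO samples, and since the strand setting of the counting is not stated, reads of the 2 overlapping genes cannot be told apart. On chromosome 17 (GRCm38), Six3os1 spans 85601932 to 85618396, Six3 85613608 to 85626191 and Six2 85662736 to 85688254. The nearest tested genes on either side, chosen for their position, were not called. Camkmt had a log2 fold change of -0.09, Six2 of 0.20 (edgeR adjusted p 0.741), the clone gene Gm29418 of 0.20 and Srbd1 of -0.06. Beyond Camkmt, Prepl was not called, at -0.25, and Slc3a1 was lower, at -2.69.

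Of 47 homeobox factors of other organs in the tables, 11 (23.4%) lay higher in all KO samples than in all controls and 3 (6.38%) lower. Over all genes in the tables these shares were 8.91% and 7.68%. Of the 47, 6 had no count in any library. Lmx1a, a factor of dopaminergic neurons and the inner ear, stood at 0.0304, 0.0323 and 0.0543 CPM in controls and 1.84, 2.23 and 3.64 CPM in KO samples (log2 fold change 5.88). Of 34 Hox genes, 3 were higher and 2 lower, where 6.36% and 8.23% of all genes tested were. Without control 3, 7 Hox genes were higher and 3 lower, where 13.6% and 13.8% of all genes tested were. Hoxd12, from the 5′ end of its cluster, stood at 3.74, 5.08 and 2.82 CPM in controls against 13.7, 17.4 and 16.7 CPM in KO samples (log2 fold change 2.04, SE 0.25, edgeR adjusted p 0.00145). Its neighbour Hoxd13 stood at 0.122, 0.259 and 0.217 CPM in controls against 0.747, 1.02 and 1.33 CPM in KO samples, a log2 fold change of 2.34. Imprinted genes, whose single active parental allele depends on DNA methylation, were higher in 8 and lower in 1 of 45 cases. For all genes tested the shares were 6.36% and 8.23%. The list summed to 8826, 8093 and 5208 CPM in controls, with control 3 the lowest, and 9381, 9092 and 9924 CPM in KO samples. Magel2, a paternally expressed gene of the Prader-Willi region, stood at 0.183, 0.388 and 0.326 CPM in controls against 3.52, 7.501 and 4.14 CPM in KO samples (log2 fold change 4.06), and Plagl1, a paternally expressed zinc finger factor, at 278, 247 and 185 CPM in controls against 513, 439 and 481 CPM in KO samples (log2 fold change 1.02, SE 0.17, edgeR adjusted p 0.00617).

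Silencers of transposons and heterochromatin had 1 higher call of 24, and 10 without control 3. The call was Suv39h2, a histone H3 lysine 9 methyltransferase, at 11.3, 13.1 and 8.799 CPM in controls and 36.1, 23.7 and 26.01 CPM in KO samples (log2 fold change 1.37, SE 0.22, edgeR adjusted p 0.00458). Polycomb genes had 2 higher calls of 27 and none lower, both of which were lost in some of the other settings, and 7 higher and 3 lower without control 3.

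Gene families are given by their counts, and differences between them were not tested. Of 341 solute carriers (Slc) tested, 110 were lower and 16 higher, with a median of -0.32 (130 and 26 without control 3). Acyl-CoA synthetases, dehydrogenases and thioesterases were lower in 21 of 34 cases and higher in 1, and mitochondrial Slc25 carriers were lower in 16 of 44 and higher in 2. Of 371 zinc finger genes named Zfp, 35 were higher and 1 lower, with a median of 0.24. Without control 3 the Zfp counts were 135 higher and 10 lower and the median was 0.37. Keratins were higher in 6 of 19 cases with none lower; Krt19, a keratin of simple ducts, stood at 38.1, 39.3 and 34.1 CPM in controls and 132, 147 and 57.7 CPM in KO samples (log2 fold change 1.60, SE 0.31, edgeR adjusted p 0.0108), with KO 3 the lowest KO library as in the urothelial genes. Genes known by clone names (Gm or Rik) or without a symbol were higher in 238 and lower in 88 of 2755 cases, or 8.64% and 3.19%, and genes with other names were higher in 5.95% and lower in 9.14%. Of the 238, 91 had no control count and entered the test only through KO counts; among genes with a count in any control, 5.52% of clone-named genes and 5.55% of the others were higher. Among annotated classes, pseudogenes were higher in 49 and lower in 9 of 626 cases; 20 of the 49 had no control count, and among pseudogenes with a count in any control 4.79% were higher, against 5.55% of all such genes tested. Shares among genes with a count in any control still hold genes with very few control reads, which also entered only through KO counts. Rps3a3, a retrocopy of a ribosomal protein gene, stood at 1.86, 1.65 and 1.11 CPM in controls against 152, 159.9 and 183 CPM in KO samples, which its near-identical parent gene makes uncertain.

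Among chromosomes with more than 2 tested genes, the X carried the highest share of higher calls with all libraries in the fit. Of 637 X-linked genes tested, 87 (13.7%) were higher and 35 (5.49%) lower, against 5.92% and 8.71% of 16396 autosomal genes. Leaving out the listed X-linked cancer-testis and placenta genes, 72 of 620 (11.6%) were higher. Among genes with a count in any control, 10.7% of X-linked and 5.37% of autosomal genes were higher. These 2 shares still hold genes that passed the filter through KO counts alone. Of 159 tested genes with a control count but a control mean under 0.1 CPM, 158 were higher. Tex13b, a testis gene on the X, stood at 0.122, 0.129 and 0.0543 CPM in controls and 7.66, 6.94 and 9.11 CPM in KO samples (log2 fold change 6.25). At the other end, chromosome 19 had 16 higher (2.80%) and 72 lower (12.6%) of 571 genes, among the lower Slc22a19, an organic anion carrier, at 83.7, 80.5 and 113 CPM in controls against 10.3, 13.3 and 13.9 CPM in KO samples (log2 fold change -2.89, SE 0.18, edgeR adjusted p 8.87e-05). Without control 3, 113 of the 637 X-linked genes were higher and 62 lower, and 2136 and 2436 of the autosomal genes. On chromosome 13, 113 of 634 genes were then higher, so the X no longer had the highest share. Chromosome 19 then had 57 higher and 113 lower genes, where 13.6% and 13.8% of all genes tested were. These shares were not compared by a test of their own.

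Higher genes also lay side by side. Runs of at least 4 higher genes with gaps of at most 500000 bases numbered 35, and the genes named in these runs were chosen after their values were seen. Many of these genes had no control count and entered the test only through KO counts, so the share of tested genes that were higher is not given. The longest run, on chromosome 3 from 92170185 to 94267176 (GRCm38), held 15 higher genes, 6 of them with no control count: cornified envelope genes of skin such as Ivl and Tchh, and Tdpoz3 of the 2-cell embryo. On chromosome 12, 12 higher genes lay between 87514316 and 88321762, 8 of them with no control count and all but 1 with Gm clone names. On the X, 12 lay between 36885991 and 37829857, among them Rhox2 copies, Rhox5 and Rhox6, with no control count for 9, and 9 between 73033981 and 73398712, mostly of the Xlr family, with none for 2. On chromosome 4, 7 lay between 143615003 and 144364419, Pramef6, Pramef17 and Pramef25 among them, 6 with no control count, and on chromosome 7 the 5 of the Zscan4 array between 10900740 and 11402318, 3 with no control count. Chromosome 11 held 6 between 94755129 and 94849593, 3 with no control count, with Tmem92, a membrane protein gene that stood at 13.7, 13.2 and 18.9 CPM in KO samples and had no count in controls. Tandem copies share sequence, so their counts are not independent of one another.

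Promoter methylation was then set beside the transcripts, from separate bisulfite libraries of 3 control and 3 KO samples, which the fit of the transcripts did not use. A promoter here is 500 bases on either side of a start, with at least 30 methylation calls in each of the 6 libraries; 10410 of 12904 promoters met this. Their mean methylation was 5.31% ± 0.083 (SD, n = 3) in controls and 4.20% ± 0.17 in KO samples, a difference of -1.10 percentage points in which the groups did not overlap (two-sided exact permutation test, p = 0.1, the smallest that 3 against 3 allows). Most promoters carried almost no methylation in either group. In controls, promoters of the genes called higher with no control count averaged 84.5% (11 promoters), those of the other higher genes 14.0% (433), those of lower genes 6.40% (843) and those of genes not called 4.70% (9123). Only 11 of the 156 genes of the first class had a promoter that met the minimum. Genes with no count in either group were not tested, so these classes cannot separate silence in controls from a rise in KO samples. In KO samples the same classes averaged 65.4%, 10.7%, 5.07% and 3.74%. As a share of the control mean, the loss was similar in each class, at 22.5%, 23.4%, 20.8% and 20.4%.

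Promoters of germ cell and early embryo genes called higher were at the methylated end in controls. Of 27 such promoters, 24 were at least 50% methylated in controls and 21 were lower in each KO library than in any control. Their median went from 91.9% to 73.0%. Genes among them with no control count, such as Mov10l1, entered the test only through KO counts. Promoters of list members not called were not summarised, so a link between methylation and the rise was not tested. Sohlh2 had 96.6% ± 0.865 (SD, n = 3) in controls and 77.9% ± 1.67 in KO samples. Mov10l1 had 92.5% ± 2.88 and 54.2% ± 7.57, and Tuba3a 95.4% ± 1.75 and 61.03% ± 2.24. By these means most calls at the 3 promoters remained methylated in KO samples. In KO 3 the Mov10l1 promoter had 46.9%, over 32 calls. The pattern had exceptions among higher genes. Zfp296, a zinc finger gene of pluripotent cells, had 1.59% ± 0.0822 in controls and 1.56% ± 0.867 in KO samples. The Six3 promoter had 0.92997% ± 1.09 and 0.206% ± 0.356.

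Conversely, loss of promoter methylation was seen at many genes that did not rise. Of 298 promoters at least 50% methylated in controls, 222 were lower in every KO sample. Over all 298, 61 genes were called higher (20.5%), 35 lower (11.7%) and 202 not called. Calls among the 222 were not counted separately. Among the 10112 promoters under 50%, 3.79% of the genes were higher and 7.99% lower. Slc3a1, whose transcript fell, had 89.8% ± 3.54 (SD, n = 3) in controls and 57.6% ± 11.999 in KO samples. Over 42 promoters of lower nephron transport genes the median was 1.84% in controls and 1.85% in KO samples, and 7 were at least 50% methylated in controls. That level was reached by 298 of all 10410 promoters (2.86%) and by 35 of the 843 of lower genes (4.15%). Lrp2, whose transcript fell more than 2-fold, had 0.912% ± 0.375 and 0.584% ± 0.1401.

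**Figure D5:**
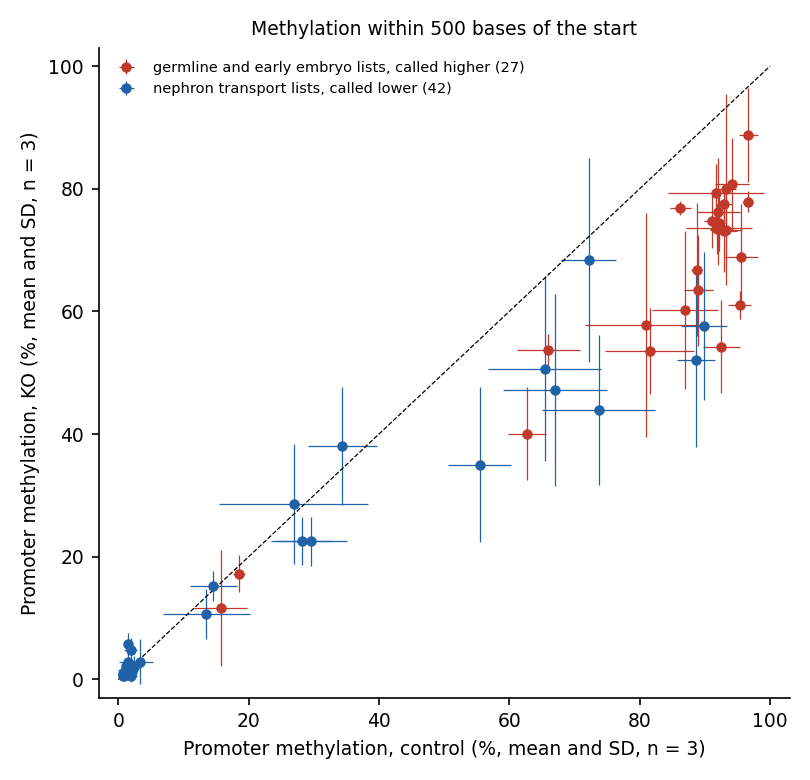
Promoter methylation in KO samples (vertical axis, percent) against controls (horizontal axis, percent), as means with SD over 3 libraries each, for 27 promoters of germ cell and embryo genes called higher and 42 of nephron transport genes called lower. Most of the first set lie above 80% in controls and below the diagonal, and most of the second lie near 0 on both axes.

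The start regions of 3 kidney and eye genes are shown for contrast, as a lower gene with a methylated promoter, a higher gene with little promoter methylation and a lower gene with no CpG in the window: Slc3a1 at chr17:85028097-85028346, plus strand; Six3 at chr17:85620584-85620833, plus strand; and Umod at chr7:119479263-119479512, minus strand. Each is 250 bases from RefSeq GRCm38.p6, 5′ to 3′ on the gene's strand, with CpGs in capitals.
Slc3a1: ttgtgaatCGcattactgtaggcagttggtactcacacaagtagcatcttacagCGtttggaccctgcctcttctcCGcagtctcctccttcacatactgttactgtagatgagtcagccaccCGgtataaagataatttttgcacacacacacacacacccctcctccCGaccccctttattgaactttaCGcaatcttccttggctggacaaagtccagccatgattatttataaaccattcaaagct
Six3: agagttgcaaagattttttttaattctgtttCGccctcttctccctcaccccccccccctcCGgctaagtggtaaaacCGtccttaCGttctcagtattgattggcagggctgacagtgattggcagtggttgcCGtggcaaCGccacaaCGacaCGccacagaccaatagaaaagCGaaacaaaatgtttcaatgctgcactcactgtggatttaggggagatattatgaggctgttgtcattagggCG
Umod: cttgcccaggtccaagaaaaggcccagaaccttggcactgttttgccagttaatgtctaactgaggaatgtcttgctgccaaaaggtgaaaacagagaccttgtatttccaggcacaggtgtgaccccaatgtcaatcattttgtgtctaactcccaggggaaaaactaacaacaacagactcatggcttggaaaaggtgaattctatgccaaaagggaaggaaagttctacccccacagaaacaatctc
Slc3a1 holds 6 CpGs, Six3 10 and Umod none. The median number of CpGs in this window was 3 for 76 genes called higher with no control count, 9 for the other higher genes and 12 for lower genes, against 14 for all 12904. Letters of 6 motifs were searched on both strands. CACGTG, an E-box, was present in 8 of 51 promoters (15.7%) of the germ cell and embryo genes called higher, in 4 of the 76 with no control count (5.26%) and in 9.30% of all promoters. TCCCGC, a core of E2F sites, was present in 19.6%, 7.89% and 31.7% of the same classes, and TATAAA in 19.6%, 23.7% and 8.65%. TGACGTCA, a cyclic AMP response element, was present in none of the 51, in 1 of the 76 and in 2.82% of all. CAAAGTCCA, an HNF4 motif, was present in 2 of 49 promoters of lower proximal tubule genes (4.08%), in none of the first 2 classes and in 0.411% of all. The palindromic HNF1 motif was present in 1 of all 12904 promoters. These matches describe letters and not bound sites.

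Basement membrane and matrix genes were lower in 8 of 22 cases with none higher (13 without control 3). Tinagl1, a basement membrane glycoprotein of the tubule, stood at 137, 108 and 123 CPM in controls and 43.6, 50.7 and 45.3 CPM in KO samples (log2 fold change -1.40, SE 0.13, edgeR adjusted p 0.000389). Cilia and cystic disease genes were lower in 6 and higher in 1 of 21. Pkhd1, the gene of recessive polycystic kidney disease, stood at 83.7, 73.9 and 91.1 CPM in controls against 40.4, 40.1 and 34.6 CPM in KO samples (log2 fold change -1.11, SE 0.12, edgeR adjusted p 0.000954). Wnt ligands and targets had 4 higher and 3 lower of 21, and TGF-beta and BMP genes 3 higher and 0 lower of 21 (3 higher and 2 lower without control 3). Tgfb3, a secreted ligand, stood at 32.1, 28.8 and 31.04 CPM in controls against 58.99, 74.9 and 82.9 CPM in KO samples (log2 fold change 1.24, SE 0.14, edgeR adjusted p 0.0012). Renin-angiotensin and steroid-handling genes were lower in 6 of 18 cases. Ace, which makes angiotensin II, stood at 198, 127 and 263 CPM in controls against 35.7, 44.3 and 36.8 CPM in KO samples (log2 fold change -2.33, SE 0.25, edgeR adjusted p 0.000848), and Serpina6, the corticosteroid-binding globulin, at 307, 246 and 323 CPM in controls against 3.83, 4.13 and 11.2 CPM in KO samples. KO 3 was the highest KO library for Serpina6, whose log2 fold change of -5.52 became -6.20 without it.

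Reads that the counting gave to no single gene were compared as well. Alignments at more than 1 place made up 18.2% of reads in controls and 25.5% in KO samples on average, with groups that overlapped (two-sided exact permutation test, p = 0.2). Reads in no annotated gene made up 6.13% and 6.86% (exact permutation p = 0.6), and ambiguous reads 1.60% and 1.40% (exact permutation p = 0.3). With 3 samples against 3 the smallest p is 0.1, so that none of these differences could pass a threshold of 0.05.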

How the data were processed

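Poly(A) RNA of 3 control and 3 KO samples labelled kidney was sequenced, and the deposited tables give whole-number read counts per gene. Per the submitters' processing notes, STAR 2.4.1d and HTSeq 0.6.1 were used with mm10 (GRCm38), and Trim Galore and Bismark are also named; the strand setting is not given in the sources used here. The bisulfite tables deposited by the authors give a percent methylation and counts of methylated and unmethylated calls per position; promoter values here are methylated calls as a share of all calls. The 5 rows naming no gene were left out: reads in no gene were 5.00% to 8.38%, ambiguous reads 1.35% to 1.75% and reads aligned more than once 14.0% to 28.0% of all.

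Counts were tested with edgeR 4.0.16 (filterByExpr, TMM, glmQLFit and glmQLFTest; Benjamini-Hochberg threshold 0.05) in R 4.3.3. limma 3.58.1 (voom with quality weights) and DESeq2 1.42.0 were alternatives, as were scaling, filters, a replicate block and leaving out each library; Python 3.11.15 was used for tables. On simulated counts for these 18132 genes, edgeR recovered 12% of 50 genes changed 1.5-fold, 50% at 2-fold, 92% at 4-fold and 98% at 8-fold, with 13 false calls. Small changes were thus often missed in this setting. Depth, spread and sample number were not varied. Coordinates and promoter sequences come from RefSeq GRCm38.p6; 34675 of 46517 genes had a RefSeq record and 12904 tested genes a listed start. Folds against genes with no control count use a floor of 3 counts per library.

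Members and gene lists were chosen with earlier results of these data known. Named genes are Dnmt1; in each list the 3 called members with the smallest p and the most abundant member; over all genes the 15 largest changes (mean log2 CPM of at least 1, groups apart) and the 15 most abundant called genes in each direction; and the 3 called genes with the smallest p per chromosome and biotype. Genes of near-identical families are uncertain in level. Bisulfite samples of adult kidney were not used here.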

Additional observations from a re-analysis of the deposited data

How the results depend on the processing

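The number of higher genes moved from 1153 to 2442 with limma voom and 710 when each sample had to hold at least 10 counts, and the number of lower genes from 1493 to 2595 with limma voom. Leaving out 1 library gave 647 to 2512 higher and 701 to 2563 lower genes; both maxima came without control 3, and the minima without KO 1. Without control 1 there were 734 higher, without KO 2 742 higher and 779 lower, and without KO 3 734 higher and 790 lower. Each such fit has fewer samples; other causes were not tested. DESeq2, RLE factors, library size alone and no filter on low counts kept both counts within 1.5 times. Of the called genes, 43.6% were higher, against 50.5% with library size alone. A replicate block gave 798 higher and 1005 lower genes; same-numbered samples deviated from their group means with correlations of -0.27, -0.09 and -0.14, so the numbers are not known to pair samples. The promoter difference of -1.10 percentage points became -1.38 with at least 10 calls, -0.68 with at least 100 calls and -0.77 with 250 bases either side; leaving out 1 library gave -1.39 (without KO 3) to -1.03. Among 46 lists with a median of at least 0.4 in size, 5 of 598 list and setting pairs had the other sign. At these depths, genes under about 3 counts per library cannot be ranked.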
